A study of Danio rerio with 24 samples.

Results

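The genes described here are 5 rows of the liver RNA counts of male zebrafish: gzmk (ENSDARG00000028780), il7r (ENSDARG00000078970), ccl34b.4 (ENSDARG00000094002), ifi44a8 (ENSDARG00000093857) and irf1a (ENSDARG00000043492). They are 5 of the 32105 gene rows and link lymphocytes, chemokines and the interferon response. They were chosen by identifier, and the choice was made on their difference between 3-year and 1-year fish at 37.5 nM rotenone in these same data. Their age differences are therefore given as a description with no test.

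Granzyme K, encoded by gzmk, is a serine protease kept in the cytotoxic granules of T cells and natural killer cells. The interleukin-7 receptor alpha chain, encoded by il7r, pairs with the common gamma chain and carries survival signals to T lymphocytes through JAK kinases and STAT5. Chemokines such as ccl34b.4 are secreted proteins that direct the movement of leucocytes, and ccl34b.4 is one of a cluster of zebrafish ccl34 copies. The gene ifi44a8 belongs to the zebrafish relatives of IFI44, a gene that interferon induces in mammals, and irf1a is a zebrafish counterpart of IRF1, a transcription factor of the interferon response, beside its paralogue irf1b. In liver, T cells and natural killer cells form part of the resident immune population.

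Each of the 24 fish gave 1 liver library. Of these, 9 fish were 1 year old and held at 3.75 nM rotenone, 9 were 1 year old at 37.5 nM, and 6 were 3 years old at 37.5 nM. Rotenone inhibits complex I of the mitochondrial respiratory chain. All fish were of the AB JxTu background, and the 3-year fish also carried the transgene Tg(flk:mCherry), named after a promoter of endothelial cells, so that age and the transgene cannot be told apart. Untreated fish are not named in the labels, so the values have no untreated background beside them, and the length of exposure is not given. Fish numbers in the titles run from 163 to 181 (lower series, 10 fish) and from 189 to 202 (upper series, 14 fish), and both series occur in every group. Fish at 3.75 nM were deposited in a count table of their own, so dose and table cannot be told apart.

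Libraries held between 24644663 and 45297644 counts. Values are CPM, the count of a gene as a share of the library total, scaled to 1000000 counts, with the total corrected by TMM factors. Summed hepatocyte markers ranged from 97220 to 313646 CPM over the 24 libraries. Summed intestine markers reached 38939 CPM in fish 200 (1 year, 37.5 nM, replicate 7) and lay over 8000 CPM in 5 libraries, all of them from 1-year fish.

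The gene gzmk had 0 to 22 counts in 1-year livers and 14 to 177 counts in the 6 livers of 3-year fish. At 3.75 nM its lowest, median and highest values were 0, 0.031 and 0.434 CPM, with 0 counts in 4 of 9 fish. At 37.5 nM the 1-year values were 0, 0.059 and 0.392 CPM, with 0 counts in 2 of 9 fish. In those 6 fish a count of 0 allows up to 3 counts, which is 0.0906 to 0.114 CPM. The 3-year fish 178, 181, 194, 195, 196 and 197 stood at 0.449, 2.31, 5.34, 2.06, 2.55 and 0.672 CPM, from 14 to 177 counts. All 6 lay above all 18 of the 1-year fish, but fish 178 lay only just above the highest of them, fish 190 at 3.75 nM with 22 counts. That order rests on the TMM factors, 0.9608 for fish 178, 1.128 for fish 189 and 1.245 for fish 190. By library total alone, fish 178 lay below fish 189 and 190. The fitted log2 difference of 3-year over 1-year fish at 37.5 nM was 4.44 ± 0.76 (estimate ± SE, edgeR), and that over the 1-year fish at 3.75 nM was 3.95 ± 0.88. The second value compares fish that differ in age, dose, transgene and table at once.

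The receptor gene il7r was higher in the median of 3-year fish, and the groups overlapped. Its lowest, median and highest values were 0.123, 0.988 and 4.56 CPM in 1-year fish at 3.75 nM. They were 0.184, 0.858 and 4.11 CPM in 1-year fish at 37.5 nM. The highest 1-year values, in fish 190 (4.56 CPM), 200 (4.11 CPM) and 198 (2.28 CPM), came from libraries over 8000 CPM of intestine markers. Fish 166 and 192, also over that limit, had 1.81 and 0.815 CPM. The 3-year fish ran from 1.38 through a median of 4.93 to 64.7 CPM. Of the 6 older fish, 3 lay above all 18 younger ones, and fish 181 held the 64.7 CPM, far above the next of its group at 7.06 CPM. The log2 difference from 1-year fish at 37.5 nM was 3.50 ± 0.86, and it was 1.72 without fish 181. From the 1-year fish at 3.75 nM it was 3.33 ± 0.86.

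The chemokine gene ccl34b.4 followed with less overlap. The 1-year fish at 3.75 nM had a lowest, median and highest value of 0.123, 0.934 and 9.42 CPM, and those at 37.5 nM had 0.167, 1.50 and 6.94 CPM. The 3-year fish stood at 2.66 CPM in fish 178, at a median of 15.6 CPM, and at 52.1 CPM in fish 194. Above every 1-year fish at 37.5 nM lay 5 of the 6 older fish, and 4 of the 6 lay above all 18. The single 1-year fish that reached into the older range in each dose group were fish 189 at 9.42 CPM and fish 177 at 6.94 CPM. The log2 difference was 3.45 ± 0.71 from 1-year fish at 37.5 nM and 3.25 ± 0.80 from those at 3.75 nM.

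The IFI44 relative ifi44a8 had a higher median in older fish, and the groups overlapped. Its values in 1-year fish at 3.75 nM were 0.797, 4.50 and 31.1 CPM as lowest, median and highest. In 1-year fish at 37.5 nM they were 1.70, 2.90 and 8.99 CPM. The 3-year fish ran from 3.94 CPM in fish 181 through a median of 18.5 to 76.2 CPM in fish 194. Fish 181 lay below fish 177, 198 and 199 at 37.5 nM, and fish 178, at 9.02 CPM, lay only just above fish 177 at 8.99 CPM. Fish 165, 189 and 191 at 3.75 nM (31.1, 20.2 and 19.1 CPM) lay within the upper range of the older fish, and only 2 of the 6 older fish lay above all 18 younger ones. The log2 difference was 2.88 ± 0.60 from 1-year fish at 37.5 nM and 1.70 ± 0.83 from those at 3.75 nM.

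The transcription factor gene irf1a went the other way. Its lowest, median and highest values in 1-year fish at 3.75 nM were 0.0819, 0.533 and 3.03 CPM, and in those at 37.5 nM 0.215, 0.964 and 4.46 CPM. The 3-year fish stood at 0.0245, 0.0938 and 0.310 CPM in the same order. Fish 178, 181, 194, 195, 196 and 197 held 4, 2, 6, 12, 1 and 2 counts, so these values lie near the floor of counting. Below every 1-year fish at 37.5 nM lay 5 of the 6 older fish, and fish 195 was the exception. Among the 1-year fish at 3.75 nM, fish 163, 165, 192 and 166 lay within the older range, with 0.101, 0.0819, 0.0941 and 0.275 CPM. At 37.5 nM fish 199 and 200 did so too, with 0.215 and 0.235 CPM. The log2 difference from 1-year fish at 37.5 nM was −3.42 ± 0.75, and irf1a did not pass the low-count filter of the fit against 1-year fish at 3.75 nM.

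**Figure D1:**
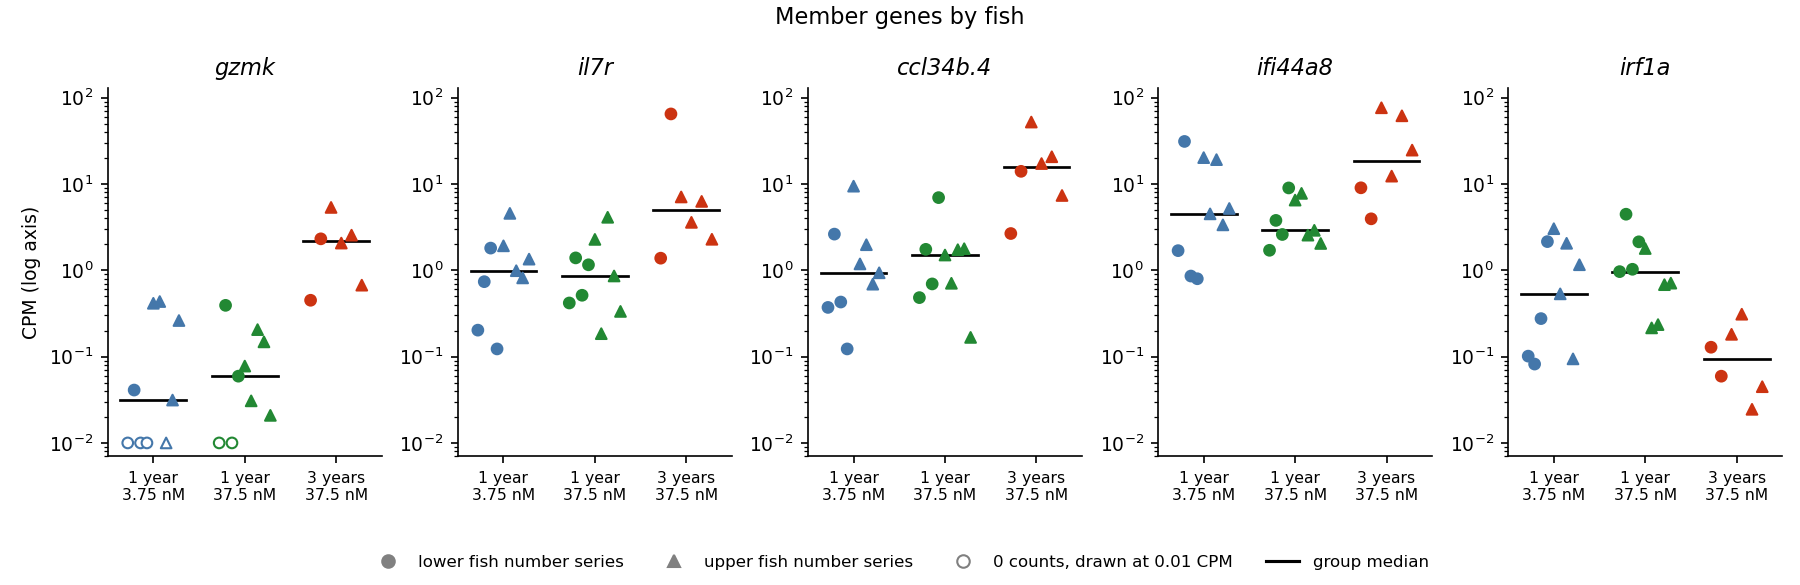
CPM of the 5 genes in each fish on a log axis, by group, with circles for the lower and triangles for the upper fish number series, bars at group medians, and open symbols at 0.01 CPM for fish with 0 counts. For gzmk all 6 older fish lie above the 18 younger ones on this TMM-corrected scale, though not by library total alone. The other genes overlap between groups, and irf1a is lowest in older fish.

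In the edgeR fit of 3-year against 1-year fish at 37.5 nM, 16159 genes passed the filter on low counts, the 5 genes among them. Of the 16159, 749 did not pass that filter in the fit of 1-year fish alone, and gzmk was one of these. At an adjusted p below 0.05 (Benjamini-Hochberg), 0.897% of these genes were higher and 0.823% lower at 3 years, 1.72% together. These were 145 and 133 genes, and with upper-quartile factors 242 and 126. The 5 genes counted 3 higher, 1 lower and 1 (il7r) not past the threshold, a count that follows from how they were chosen. Complete separation of all 6 older fish above all 9 younger fish at 37.5 nM was found in 0.334% of tested genes and in 1 of the 5, gzmk. Because gzmk was chosen on this contrast and passed the low-count filter only with the older fish, its separation supports nothing by itself. Separation above all 18 younger fish was found in 0.167% of tested genes and again in gzmk. For gzmk this held under TMM scaling but not by library total alone. These libraries came from whole liver tissue, so fewer or more cells of a type and less or more RNA per cell cannot be told apart.

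The fitted age differences of some of these genes differed in size between the fish number series. These splits hold few fish, and the difference between the series was not tested. Within the lower series (2 fish at 3 years against 4) the log2 differences were 3.65 for gzmk, 5.28 for il7r, 1.77 for ccl34b.4, 0.59 for ifi44a8 and −4.47 for irf1a. Within the upper series (4 against 5) they were 4.76, 1.62, 4.37, 3.34 and −2.42 in the same order of genes. The directions were shared by both series for all 5 genes. The genes were chosen on the age difference in these same fish, so the shared directions support nothing by themselves. Fish 181, with the highest il7r, is 1 of the 2 older fish of the lower series. The median of ifi44a8 was 6.48 CPM in the 2 older fish of the lower series and 43.1 CPM in the 4 of the upper series.

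Whether dose moved these genes was asked in the 1-year fish, 37.5 nM minus 3.75 nM (n = 9 each). The 9 fish at 37.5 nM are also the younger side of the age comparison on which the genes were chosen. These dose tests are therefore not independent of that choice. Levels of gzmk were too low to pass the filter, which left 4 of the 5 genes. None of the 4 passed edgeR's test, against 11.4% of the 15465 genes tested, and none had an unadjusted p below 0.05, against 28.0%. DESeq2 and limma voom called none of them, against 17.5% and 10.7% of all genes. The log2 difference of il7r was −0.16 ± 0.63 (95% interval −1.39 to 1.07, edgeR adjusted p = 0.896). For ccl34b.4 it was −0.18 ± 0.73 (−1.61 to 1.24, adjusted p = 0.898), and for irf1a 0.35 ± 0.70 (−1.02 to 1.73, adjusted p = 0.777). The intervals of these 3 genes leave room for a change of more than 1 log2 in either direction. The gene ifi44a8 stood at −1.16 ± 0.64 (−2.41 to 0.10, adjusted p = 0.248). Its 3 highest 1-year values all came from fish at 3.75 nM.

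The fish number series, upper minus lower in the 18 1-year fish with dose as a term, gave the same count. None of the 4 testable genes passed, against 12.0% of 16312 genes called, and none had an unadjusted p below 0.05, against 32.0%. The log2 difference of il7r was 1.14 ± 0.61 (edgeR adjusted p = 0.209), that of ccl34b.4 0.23 ± 0.83 (0.864), that of ifi44a8 0.16 ± 0.66 (0.881) and that of irf1a −0.32 ± 0.79 (0.803). The interaction term of the 2 factors called 6.33% of 17217 genes and none of the 4. The lowest p-values in it were those of ccl34b.4, at −2.78 ± 1.43 (adjusted p = 0.273), and of irf1a, at −2.62 ± 1.38 (adjusted p = 0.285). DESeq2 called none of the 4 in either fit, against 21.9% and 12.8% of all genes.

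**Figure D2:**
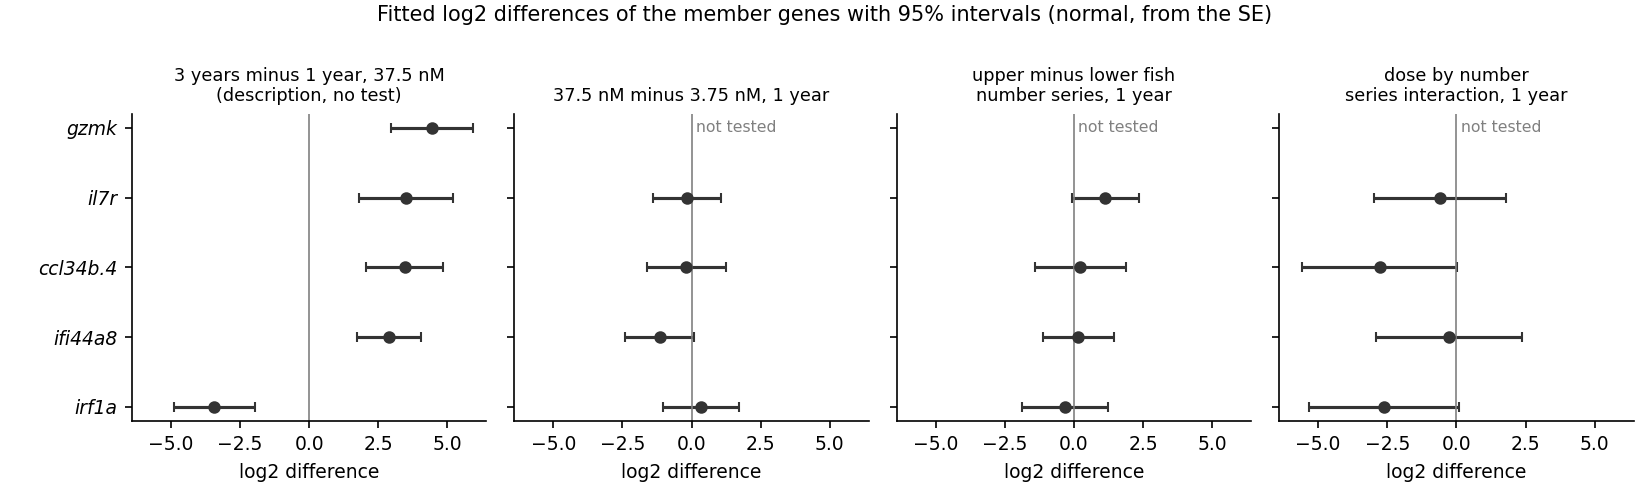
Fitted log2 differences of the 5 genes with 95% intervals from the SE, for age, dose, fish number series and their interaction. The age panel is a description of how the genes were chosen; in the other panels every bar crosses 0, and gzmk was too low to be tested.

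The genes were then followed from fish to fish inside the groups, a measure that the choice by age did not use. For each fish the deviation of log2 CPM (prior count 2) from its group mean was taken. All 10 pairs were tested over 24 fish by two-sided permutation within groups (100000 resamples). Both genes of a pair share the library and depth of each fish, and no share over other gene pairs is given here. Fish with more gzmk also had more il7r (Pearson r = 0.65, adjusted permutation p = 0.00373, Spearman rho = 0.73, adjusted p = 0.0008) and more ccl34b.4 (r = 0.66, adjusted permutation p = 0.00373, rho = 0.67, adjusted p = 0.00343). For gzmk the 18 1-year fish hold 0 to 22 counts each and 6 of them tie at 0 counts, so most points of its pairs rest on few counts. The receptor il7r and the chemokine ccl34b.4 moved together at r = 0.54 (adjusted permutation p = 0.0223, rho = 0.58, adjusted p = 0.0131). The closest pair was ccl34b.4 and ifi44a8, at r = 0.73 (adjusted permutation p = 0.0008, rho = 0.79, adjusted p = 0.0002). Without the 2 fish farthest from the median of the first gene, r was 0.59, 0.62, 0.56 and 0.65 for these 4 pairs.

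The other 6 pairs did not pass. Values of gzmk and ifi44a8 stood at r = 0.35 (adjusted permutation p = 0.273), and those of il7r and ifi44a8 at r = 0.08 (0.729). The transcription factor irf1a had r between 0.08 and 0.28 with the 4 other genes (adjusted permutation p of 0.364 or more). Its 3-year values rest on 1 to 12 counts a fish. Within single groups the 4 pairs that passed kept a positive r in each group. It ran from 0.59 to 0.69 for gzmk and il7r, from 0.52 to 0.97 for gzmk and ccl34b.4, from 0.46 to 0.61 for il7r and ccl34b.4, and from 0.57 to 0.90 for ccl34b.4 and ifi44a8, as descriptions over 6 or 9 fish.

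**Figure D3:**
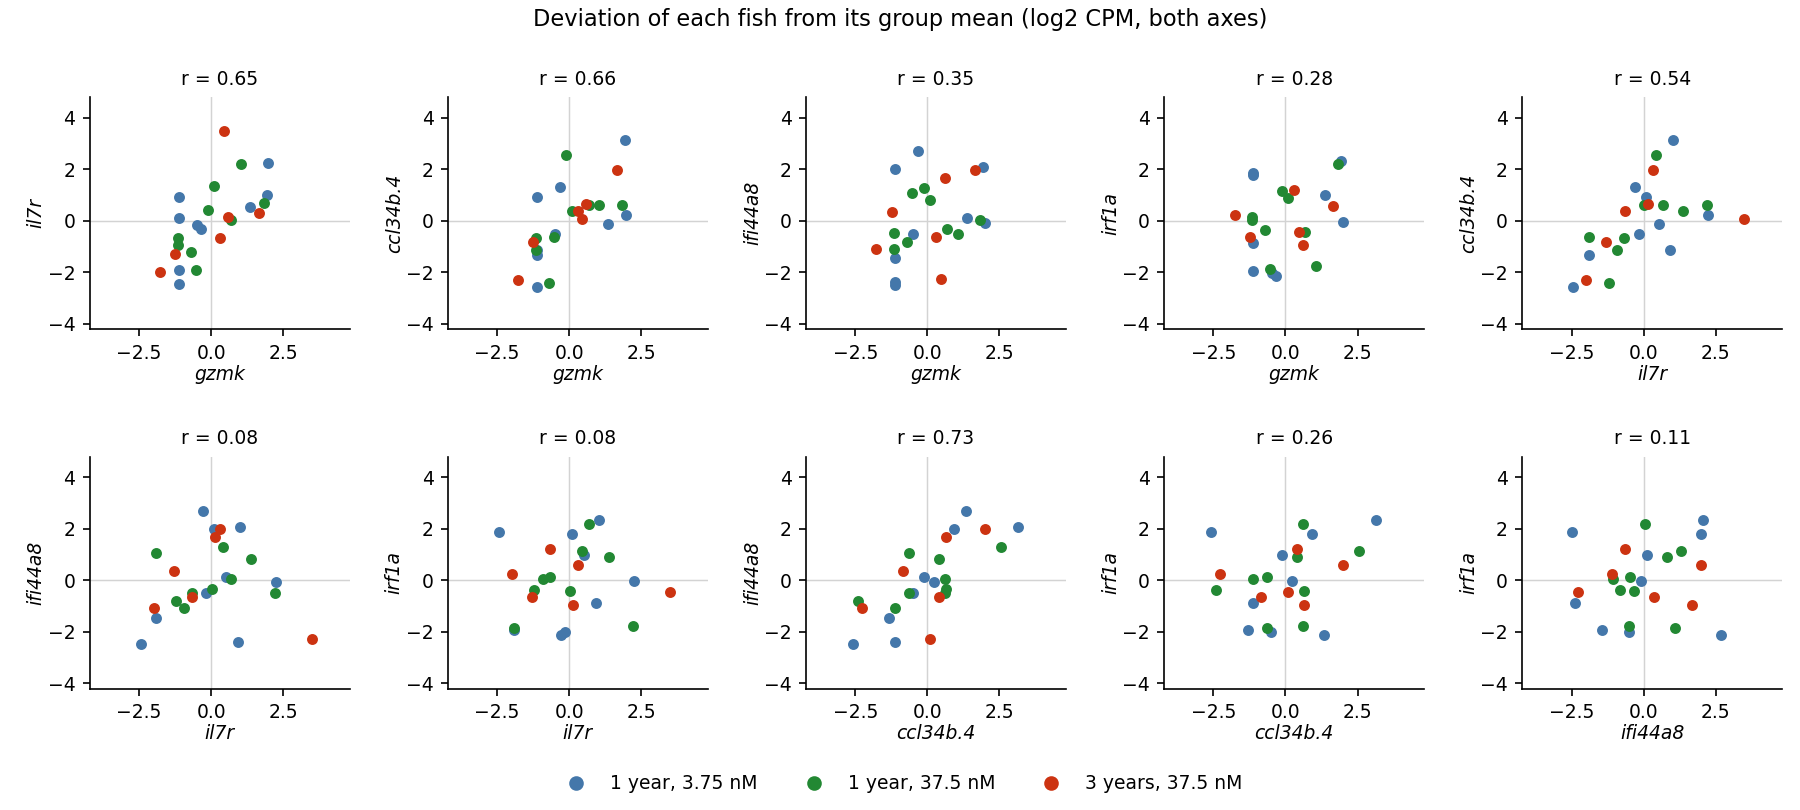
Deviation of each fish from its group mean in log2 CPM for the 10 pairs of genes, coloured by group, with Pearson r over 24 fish above each panel. The cloud slopes upward for gzmk with il7r and ccl34b.4, for il7r with ccl34b.4 and for ccl34b.4 with ifi44a8; panels with irf1a show no clear slope.

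Cell type marker sums were set beside the genes in the same way, 25 relations in all. The summed T cell and NK markers (30 gene rows, none at 0 in all fish) ranged from 5.50 to 83.3 CPM in 1-year fish at 3.75 nM, from 9.89 to 71.3 CPM at 37.5 nM, and from 16.3 to 68.7 CPM in 3-year fish. The highest 1-year sums were those of fish 190 (3.75 nM) and fish 200 (37.5 nM), both over 8000 CPM of intestine markers. Under that limit, the highest 1-year sums were 30.0 CPM (fish 189, 3.75 nM) and 26.3 CPM (fish 201, 37.5 nM). The older fish 181, 194, 195 and 196 lay above both values, and fish 178 and 197 did not. Over all 24 fish the groups overlapped widely in this sum, with medians of 27.3, 23.9 and 37.0 CPM. Inside groups it went with gzmk, whose 1-year values rest on these few counts (r = 0.65, adjusted permutation p = 0.00933, rho = 0.63, adjusted p = 0.0101) and il7r (r = 0.74, adjusted permutation p = 0.00125, rho = 0.74, adjusted p = 0.00375). Without the 2 farthest fish r was 0.57 and 0.67. For ccl34b.4 the relation stood at r = 0.51 (adjusted permutation p = 0.0727) and rho = 0.57 (adjusted p = 0.0234).

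Macrophage markers (28 rows, 1 of them at 0 in all fish) gave r = 0.63 with gzmk and 0.57 with il7r (adjusted permutation p = 0.00933 and 0.02, rho = 0.67 and 0.62, adjusted p = 0.00725 and 0.0101). Pan-leucocyte markers (19 rows) gave r = 0.53 with gzmk (adjusted permutation p = 0.0309, rho = 0.66, adjusted p = 0.00792). With il7r they stood at r = 0.44 (adjusted permutation p = 0.0986) and rho = 0.56 (adjusted p = 0.0234). The macrophage sum ran from 67.5 to 282 CPM, from 87.5 to 435 CPM and from 164 to 413 CPM in the 3 groups. Neither ifi44a8 nor irf1a passed with any of the 5 marker sums (adjusted permutation p of 0.203 or more). Sums of intestine and erythrocyte markers passed with none of the 5 genes. For il7r with the intestine sum r was 0.24, and 0.41 without the 2 farthest fish. The erythrocyte sum ran from 35.7 to 89.8 CPM, from 63.1 to 405 CPM and from 150 to 329 CPM in the 3 groups. The part of these cell types in the age differences was not tested.

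Genes of the same pathways, other than the 5, were then counted in the age comparison from 19 lists, each count being read beside the 0.897% higher and 0.823% lower over all genes and the median log2 difference of −0.00 over all genes. An unadjusted p below 0.05 was found for 18.8% of all genes. DESeq2 called 7.45% and limma voom 1.64%. Among 21 tested T cell and NK markers, 1 was higher, 0 were lower and 20 missed the threshold, and 11 had an unadjusted p below 0.05. Of these 21, 7 passed the low-count filter with the older fish but not in 1-year fish alone. Neither a count over the 21 nor a p-value among the 7 supports anything by itself. In the other 14, 0 passed edgeR, and the median was 0.99 with 10 above 0. A shift of like size lay between the fish number series in 1-year fish. There all 17 tested genes of this list stood above 0, with a median of 1.07 beside 0.06 over all genes. The gene that passed, one of the 7, was tbx21 (ENSDARG00000004473), encoding T-bet, a transcription factor of type 1 helper and cytotoxic T cells and of natural killer cells. Its highest 1-year value at 37.5 nM was 0.415 CPM, and the older fish ran from 0.289 to 1.78 CPM, 5 of 6 of them above it and 4 of 6 above all 18 younger fish. It rose by 2.13 ± 0.43 (edgeR adjusted p = 0.0232), and the call was lost without fish 194 (0.0576) or fish 196 (0.0619). The coreceptor genes of cytotoxic T cells, cd8a (ENSDARG00000044797) and cd8b (ENSDARG00000058682), stood at 2.77 ± 0.86 (adjusted p = 0.103) and 2.68 ± 0.78 (0.0839). Both were also among the 7, so these values support nothing by themselves. Other markers stood below 0, as in CCR7 (ENSDARG00000044561), a homing receptor of naive T cells, at −1.64 ± 0.74 (0.247), foxp3a (ENSDARG00000055750), a factor of regulatory T cells, at −1.49 ± 0.81 (0.339) and TCF7 (ENSDARG00000038672), a T cell transcription factor, at −1.17 ± 0.50 (0.22).

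In the granzyme and perforin family, 3 of 7 tested genes were higher, 0 were lower and 4 missed the threshold. Only 1 of the 7, a perforin gene, passed the low-count filter in 1-year fish alone. The 3 higher genes passed it only with the older fish, so neither their count nor their p-values support anything by themselves. All 3 were copies of gzm3, genes of the same protease family as gzmk. In gzm3.4 (ENSDARG00000076814) the 1-year fish at 37.5 nM ran from 0.0921 to 0.352 CPM and the 3-year fish from 0.385 to 2.66 CPM, with no overlap. It rose by 2.43 ± 0.39 (edgeR adjusted p = 0.00734). In gzm3.2 (ENSDARG00000055986) the groups ran from 0.0259 to 0.25 CPM and from 0.385 to 1.32 CPM, again with no overlap, a rise of 2.89 ± 0.47 (adjusted p = 0.00777). At 3.75 nM, however, 1-year fish reached 0.872 CPM of gzm3.2, and 4 of 6 older fish lay above all 18 younger ones. The third, gzm3 (ENSDARG00000078451), rose by 2.60 ± 0.61 (adjusted p = 0.0439). In 11 of the 15 refits without 1 library it no longer passed, with 0.0952 as the highest adjusted p, without fish 196. These copies resemble each other, and how the counting treated reads that fit several of them is not stated, so the share of each copy is uncertain. Perforin genes, which encode the pore protein released with granzymes, did not pass. They stood at 1.34 ± 0.70 for prf1.1 (ENSDARG00000030394), 0.12 ± 0.30 for prf1.5 (ENSDARG00000037598), −0.18 ± 0.58 for prf1.9 (ENSDARG00000060662) and −1.51 ± 0.93 for prf1.6 (ENSDARG00000024522), with adjusted p of 0.321, 0.872, 0.898 and 0.405.

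Around the receptor il7r, 0 of 18 tested genes of the common gamma chain cytokines, receptors and JAK-STAT5 signalling passed edgeR, 4 had an unadjusted p below 0.05, a share near the 18.8% of all genes, and DESeq2 called 1 higher and 1 lower. The median was 0.41, and 0.37 in the 16 that also passed the filter in 1-year fish. Nearest to the threshold was stat5b (ENSDARG00000055588), the transcription factor at the end of the interleukin-7 signal, at 0.45 ± 0.11 (edgeR adjusted p = 0.0535). Its 6 older fish, up to 14.1 CPM, all lay above the 9 younger fish at 37.5 nM (6.13 to 9.99 CPM), and 5 of 6 above all 18. In most alternatives it did not pass. It passed in edgeR with upper-quartile factors (adjusted p = 0.0409), number series as a covariate (0.0421) or a minimum mean of 1 CPM (0.0385). It also passed by DESeq2 (adjusted p = 0.00397). The receptor chain il2rb (ENSDARG00000075720), shared by interleukin-2 and interleukin-15 in mammals, stood at 1.04 ± 0.34 (adjusted p = 0.121).

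Among chemokines, 1 of 32 tested genes was higher, 0 were lower and 31 missed the threshold, and 9 had an unadjusted p below 0.05. Of the 32, 8 passed the low-count filter only with the older fish, so these counts and the p-values of the 8 support nothing by themselves. The 24 that also passed the filter in 1-year fish held 0 calls by edgeR and a median of 0.38. Between the fish number series in 1-year fish, 33 tested chemokines had a median of 0.33. The gene that passed, from the 8, was cxcl11.5 (ENSDARG00000092423), a zebrafish relative of CXCL11, which attracts activated T cells through the receptor CXCR3 in mammals. The 1-year fish at 37.5 nM ran from 0 to 0.652 CPM and the 3-year fish from 0.0963 to 6.64 CPM, 4 of 6 above that range. In 1-year fish at 3.75 nM it reached 5.28 CPM, and 1 of 6 older fish lay above all 18 younger ones. It rose by 4.26 ± 0.88 (edgeR adjusted p = 0.0241). The call was lost without fish 194, 196, 197 or 198 and without the 5 libraries rich in intestine markers (adjusted p = 0.0602), and limma voom called no chemokine. A neighbouring copy, cxcl11.8 (ENSDARG00000095747), stood at 3.57 ± 0.98 (adjusted p = 0.0709). The other ccl34 genes that could be tested stood at 0.29 ± 0.66 for ccl34b.1 (ENSDARG00000093608) and 0.69 ± 0.69 for ccl34b.9 (ENSDARG00000078205), with adjusted p of 0.847 and 0.627.

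Among 19 tested chemokine receptors, 1 was higher and 0 were lower, leaving 18, and the median was −0.14. The one that passed was CXCR3 (ENSDARG00000007358), named after the mammalian receptor for CXCL11 on T cells. The copies cxcr3.2 (ENSDARG00000041041) and cxcr3.3 (ENSDARG00000070669) stood at −0.77 ± 0.63 and −0.14 ± 0.17 (adjusted p = 0.54 and 0.702). In 1-year fish at 37.5 nM CXCR3 ran from 0.250 to 1.96 CPM, and in 3-year fish from 1.57 to 8.45 CPM, 5 of 6 above that range and 2 of 6 above all 18 younger fish. It rose by 2.08 ± 0.44 (edgeR adjusted p = 0.0268), and the call was lost without fish 194 or fish 196, with adjusted p up to 0.0704. Fish 189 and 190 at 3.75 nM, the 1-year fish with the highest gzmk, had 4.36 and 5.70 CPM of CXCR3, within the range of the older fish.

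Lists of the interferon response gave few calls. Of 32 tested type I interferon and antiviral genes, 0 were higher and 1 was lower (median −0.04). It was isg20 (ENSDARG00000079783), an interferon-induced exonuclease, which fell by 1.01 on the log2 scale (SE 0.24, edgeR adjusted p = 0.0428), and 10 of the 15 refits without 1 library lost this call. DESeq2 called 2 genes of this list lower, and limma voom 1 higher and 1 lower. Of 39 tested genes of the interferon gamma response and antigen presentation, 0 passed edgeR or limma voom, 6 had an unadjusted p below 0.05, a share no higher than the 18.8% of all genes, and DESeq2 called 3 higher, against 7.45% of all genes. The median was 0.25. Between the fish number series in 1-year fish, the median of this list was 0.37 with 35 of 40 above 0. The MHC class II gene mhc2dab (ENSDARG00000079105) had the lowest p in this list, at 2.73 ± 0.72 (adjusted p = 0.0645), and it ranged from 1.48 to 63.5 CPM among the older fish.

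No other member of the families of ifi44a8 and irf1a passed. Of 9 other tested IFI44 genes, 0 passed edgeR, DESeq2 or limma voom, and 3 had an unadjusted p below 0.05, beside 18.8% of all genes. The median was 0.49 with 8 of 9 above 0. Between the fish number series in 1-year fish, the median of this family was 0.58 with 7 of 8 above 0. The copy ifi44a6 (ENSDARG00000095673) stood at 2.33 ± 1.00 (edgeR adjusted p = 0.224), ifi44a1 (ENSDARG00000029720) at 0.48 ± 0.48 (0.634) and ifi44f4 (ENSDARG00000071355) at −2.36 ± 0.94 (0.192). Of 11 other tested IRF genes, 0 passed any of the 3 tools, 2 had an unadjusted p below 0.05, and the median was 0.02. The paralogue irf1b (ENSDARG00000043249) stood at 0.46 ± 0.27 (adjusted p = 0.374), with 24.7 to 58.1 CPM in 1-year and 26.7 to 89.4 CPM in 3-year fish at 37.5 nM, and IRF7 (ENSDARG00000045661), a regulator of type I interferon, at −0.81 ± 0.35 (0.225).

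Other blood and tissue lists had no call by edgeR in the age comparison. These were B cell (7 tested, median 0.08), pan-leucocyte (18, −0.24), macrophage (23, 0.13), neutrophil (9, 0.12), erythrocyte (7, 0.64), endothelial (9, −0.05), hepatocyte (12, −0.00) and exocrine pancreas markers (18, −0.94), and NF-kB and acute phase genes (17, −0.25). Their counts at an unadjusted p below 0.05 were 1, 0, 1, 1, 1, 1, 0, 0 and 3. DESeq2 called 1 B cell and 1 macrophage gene higher, 1 endothelial gene lower, and 1 gene higher and 2 lower among NF-kB and acute phase genes. Intestine markers (16 tested) also had 0 calls by edgeR, with a median of −4.78, 11 unadjusted p below 0.05 and 1 gene called higher by DESeq2. The age differences of the 5 genes without the 5 libraries of highest intestine sum were 4.62 for gzmk, 4.38 for il7r, 3.43 for ccl34b.4, 2.91 for ifi44a8 and −3.52 for irf1a.

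**Figure D4:**
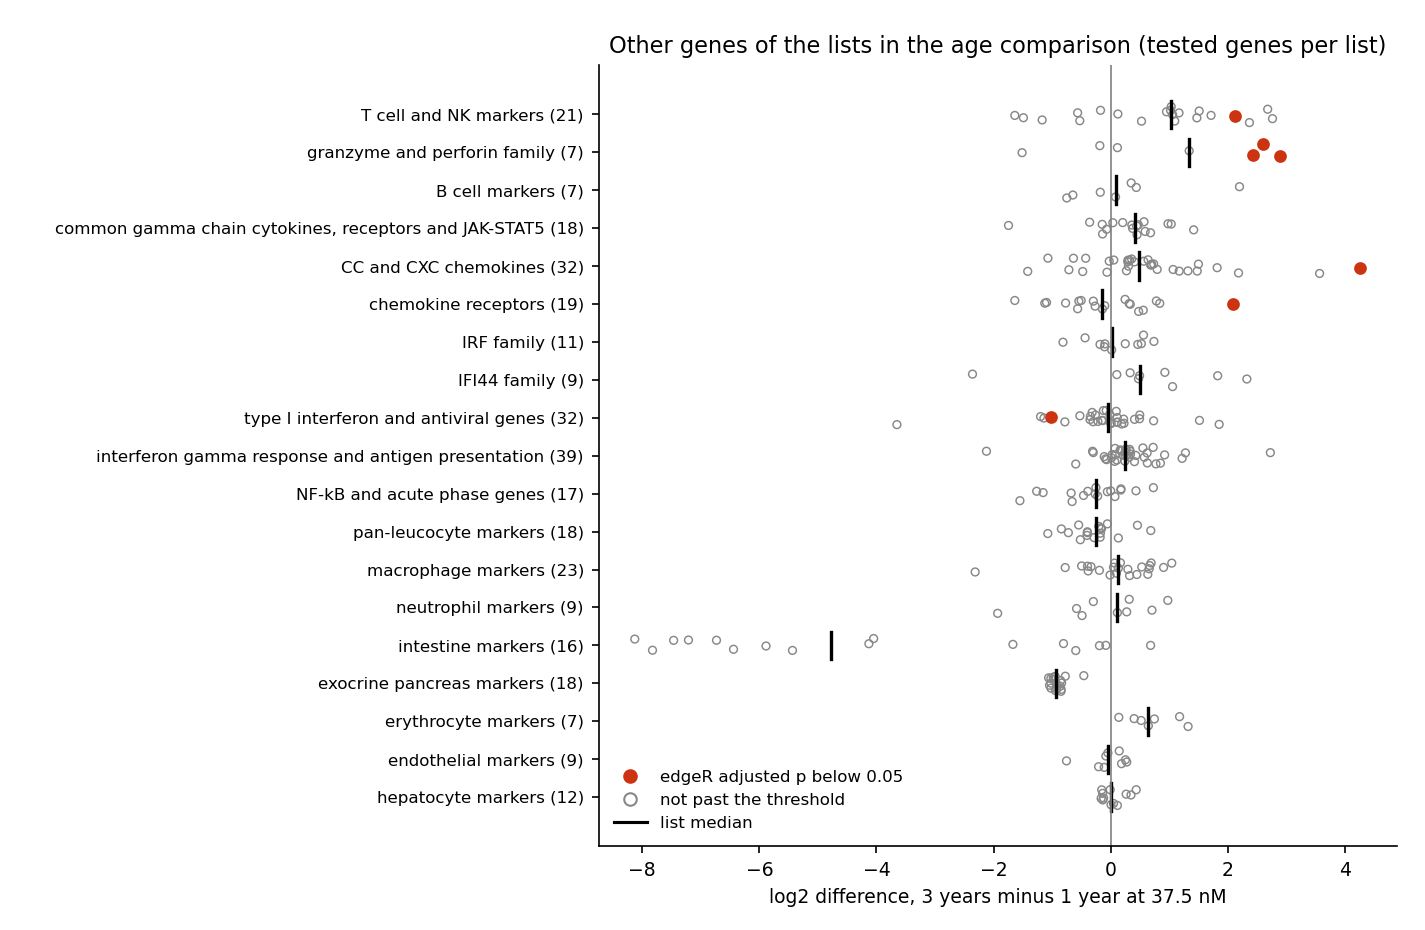
Log2 difference of 3-year minus 1-year fish at 37.5 nM for every tested gene of the 19 lists, without the 5 genes described here, with filled points for an edgeR adjusted p below 0.05 and black bars at list medians. The filled points are 3 gzm3 copies, tbx21, cxcl11.5 and CXCR3 on the right and isg20 on the left. All of them but CXCR3 and isg20 passed the low-count filter only with the older fish, so their calls support nothing by themselves.

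In the dose comparison 11.4% of all genes were called. The lists of lymphocyte, chemokine and interferon genes held 3 calls, in no list above that share. Several lists held few tested genes, so nothing about a single list is read from this. The scavenging chemokine receptor ACKR3 (ENSDARG00000058179, a symbol shared by 2 rows) fell by 0.71 on the log2 scale (SE 0.15, edgeR adjusted p = 0.0083), 1 of 15 tested receptors. The interferon regulatory factor irf2a (ENSDARG00000007387) fell by 0.93 (SE 0.27, adjusted p = 0.0311), 1 of 10 tested IRF genes, and ifngr1l (ENSDARG00000074488), a receptor chain for interferon gamma, rose by 0.71 ± 0.21 (adjusted p = 0.0371), 1 of 38. The calls of irf2a and ifngr1l were lost in 8 and 12 of 18 fits without 1 library. Among 14 T cell and NK markers, 24 chemokines, 8 IFI44 genes and 31 type I interferon genes, 0 passed edgeR, DESeq2 or limma voom, and 0 had an unadjusted p below 0.05, beside 28.0% of all genes. The granzyme and perforin family (1 tested), B cell markers (6) and common gamma chain list (16) also had 0 calls by edgeR, with 1, 2 and 2 unadjusted p below 0.05. DESeq2 called 1, 1 and 2 of them higher, and limma voom 1 B cell gene.

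For each of the 5 genes the 3 genes with the most similar pattern inside groups were found among 13711 genes with a mean of at least 1 CPM, as a description with no test. For gzmk these were CXCR3 (r = 0.84), ENSDARG00000088017 (0.81), which has no symbol in the tables used, and nfatc2b (ENSDARG00000079972, 0.79), a member of the NFAT family of transcription factors. For il7r they were ftr56 (ENSDARG00000030954), the kinase gene PLK3 (ENSDARG00000038754) and igsf9a (ENSDARG00000075864), each at r = 0.79. For ccl34b.4 all 3 were chemokines, cxcl11.4 (ENSDARG00000101138, 0.89), cxcl11.8 (0.87) and ccl36.1 (ENSDARG00000105263, 0.86). For ifi44a8 they were the DNA repair gene mgmt (ENSDARG00000043275, 0.81), the chemokine cxcl11.1 (ENSDARG00000100662, 0.79) and HSF2 (ENSDARG00000053097, 0.75), a heat shock transcription factor. For irf1a they were TAF1B (ENSDARG00000028937), zgc:171534 (ENSDARG00000105265) and SLC35F2 (ENSDARG00000069745), each at 0.72. Every fish shares its library and depth between the 2 genes of a pair.

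One of these, zgc:171534, is the second gene to one side of irf1a in the gene order of the RefSeq assembly GRCz12tu. Coordinates were not used, so the distance between them is not given. It was present at 108 to 1277 CPM in 14 fish and at 0.0675 to 2.90 CPM in the other 10, with nothing between. The fish with the low level were 163, 165 and 192 at 3.75 nM, 200 and 202 at 37.5 nM, and 178, 181, 194, 196 and 197 among the older fish. In those 10 fish irf1a ran from 0.0245 to 0.709 CPM (1 to 34 counts) with a median of 0.0976 CPM. In the other 14 it ran from 0.215 to 4.46 CPM with a median of 1.09 CPM. The match was not complete. Fish 166 and 199 had low irf1a (0.275 and 0.215 CPM) and a high level of zgc:171534 (372 and 1039 CPM). The older fish with the most irf1a, fish 195, was the only older fish with a high level of zgc:171534. The fish fall into separate sets, and the r of 0.72, on deviations from group means, was taken across both. Within the sets r was 0.33 (10 fish) and 0.45 (14 fish), on levels with no group mean subtracted. These values are therefore not directly comparable with the 0.72. The age difference of zgc:171534 was −4.86 ± 1.63 (edgeR adjusted p = 0.125), and −8.47 without fish 195. Fish 195 was singled out after its value was seen, so the second value is a description with no test. The sets were drawn after the values were seen, with a limit of 50 CPM.

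**Figure D5:**
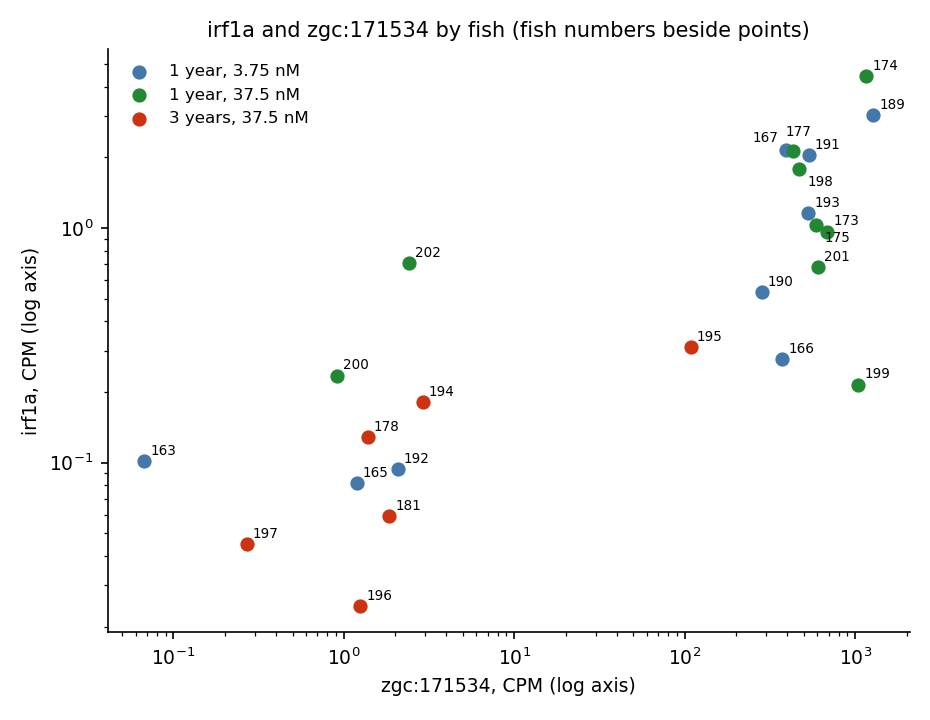
CPM of irf1a against CPM of zgc:171534, the second gene to one side in gene order, on log axes. Each fish is 1 point, coloured by group and labelled with the fish number. The 10 fish at or below 2.90 CPM of zgc:171534 stand apart from the 14 at 108 CPM or more; 5 of the 6 older fish are in the low set and have 0.0245 to 0.181 CPM of irf1a.

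Between irf1a and zgc:171534 lies ddx21 (ENSDARG00000063626), an RNA helicase gene, with an age difference of −0.12 ± 0.23 (edgeR adjusted p = 0.824) and r = 0.02 with irf1a. On the other side lies chs1 (ENSDARG00000068515), a chitin synthase gene, at −5.04 ± 1.49 (adjusted p = 0.0859) and r = 0.11. In chs1 fish 200, the one richest in intestine markers, had 801 CPM. Of the 40 genes within 4 places of the 5 genes in that order, 17 were tested in the age comparison and 1 passed, beside 1.72% of all genes. It was si:ch73-112l6.1 (ENSDARG00000093126), the third gene from il7r. It ran from 2.73 to 5.24 CPM in 1-year and from 4.57 to 33.2 CPM in 3-year fish at 37.5 nM, a rise of 2.11 ± 0.32 (edgeR adjusted p = 0.00566), and fish 181 held the highest value of this gene as of il7r.

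Beside ifi44a8 lies ifi44a7 (ENSDARG00000095309), which the low-count filter removed and which was singled out after its values were seen. It had at most 2 counts in each of the 18 1-year fish. In 3-year fish 178, 194, 196 and 197 it had 124, 263, 590 and 177 counts, and in fish 181 and 195 it had 0. The same 4 fish had 9.02, 76.2, 61.5 and 24.6 CPM of ifi44a8, and fish 181 and 195 had 3.94 and 12.3 CPM. Reads of near-identical copies may be split between rows of this family, and the counting setting for them is not stated.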

How the data were processed

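Total liver RNA was sequenced after TruSeq RNA v2 library preparation, per the labels. Raw counts per gene were deposited by the authors; base calling with CASAVA 1.8.2, alignment with STAR 2.4.1d, counting with featureCounts 1.4.6-p4 and build GRCz10 are named in the submitters' processing notes. The strand and multi-mapping settings are not given in the sources used here. Deposited files named RPKM were not used. The 2 count tables were joined on gene identifier into 32105 rows, and 26269 had a symbol in the reference table. RefSeq gene order (GRCz12tu) served for neighbours, without coordinates.

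edgeR 4.0.16 in R 4.3.3 was used on these counts, with TMM scaling, the filterByExpr filter and quasi-likelihood F tests (two-sided), with Benjamini-Hochberg adjustment over all genes tested and a threshold of 0.05. SE is the absolute log2 difference divided by the square root of F. Alternatives used other scalings and filters, DESeq2 1.42.0, limma 3.58.1 voom, number series, and libraries left out. The alternative without the 5 libraries over 8000 CPM of intestine markers was chosen after the data were seen. Members and lists were chosen with earlier results of these data known. Of 326 list entries, 272 matched; 43 gene rows matched by symbol stem. Symbols in capitals come from the reference table.

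Named genes were, per list, up to 4 called genes with a mean of at least 1 CPM or, with none called, the 2 of lowest p. Called genes below that mean (tbx21 and the gzm3 copies), neighbours, and single family members were named after their values were seen. In lists of other cell types, and among uncalled genes in the dose comparison, the rule's picks are given by count alone. The fits were tested on simulated data. Each library is 1 fish, so the spread behind a p-value is that among fish. Limits from 0 counts cover counting error only.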

Additional observations from a re-analysis of the deposited data

Results flagged for a closer look

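Among 15 groups of fish tested (5 genes in 3 groups), 6 held a fish that stood apart by Dixon's criterion, taken on CPM and not on log2 CPM. Its rate of about 1 flag in 20 groups by chance holds for normally distributed values. CPM within these groups often had a long upper tail, so that rate does not apply to the 6 flagged fish. For il7r these were fish 181 of the 3-year group (replicate 2), at 64.7 CPM against 7.06 CPM in the next fish, and fish 190 of the 1-year group at 3.75 nM (replicate 6), at 4.56 CPM against 1.92 CPM. For ccl34b.4 a fish stood apart in each group. Fish 194 (3 years, replicate 3) had 52.1 CPM, fish 177 (1 year, 37.5 nM, replicate 4) had 6.94 CPM and fish 189 (1 year, 3.75 nM, replicate 5) had 9.42 CPM. For irf1a it was fish 174 (1 year, 37.5 nM, replicate 2), at 4.46 CPM against 2.14 CPM in the next fish. In gzmk and ifi44a8 no fish met the criterion.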

How the results depend on the processing

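The age differences of the 5 genes kept their sign under every alternative run. The genes were chosen on this same contrast, so the kept signs are a description and no support for it. No alternative brought il7r, ccl34b.4, ifi44a8 or irf1a past the threshold for dose, number series or their interaction. Signs of their uncalled differences did turn. For dose, ccl34b.4 stood at 0.034 with limma voom and 1.51 in the lower series alone, il7r at 0.26 in the lower series alone and irf1a at −0.83 in the upper alone. Leaving out 1 library gave dose ranges of −0.84 to 0.75 for ccl34b.4, −0.66 to 0.34 for il7r and −0.12 to 0.75 for irf1a. The ranges for number series were −0.37 to 1.02 for ccl34b.4, −0.028 to 1.26 for ifi44a8 and −0.61 to 0.10 for irf1a. For the interaction they were −3.08 to 0.52 for ifi44a8 and −1.52 to 0.016 for il7r. All 4 related pairs passed under each alternative. With group by series means subtracted, r of irf1a turned to −0.0069 with ifi44a8 and −0.016 with il7r. The cause of these turns was not tested.

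Counts over all genes moved more. The age count was 278, with 1196 by DESeq2, 540 with number series as a covariate, and 13 and 30 in the lower and upper series alone, which hold fewer fish. Leaving out 1 library gave 115 (fish 196) to 559 (fish 195), with 139 and 167 without fish 197 and 198. The dose count was 1760, with 1131 without the filter, 2706 by DESeq2, 5291 and 0 in these series by edgeR (1218 unadjusted p below 0.05), and 909 to 2518 without 1 library. The number series count was 1961, with 3527 by DESeq2, 89 without the 5 libraries rich in intestine markers and 986 to 2855 without 1 library. The interaction count was 1089, with 2055, 80 and 516 to 2048. No paired analysis was possible because each library is a separate fish and the labels give no replicate numbers shared between groups. At 0 to 22 counts a fish, gzmk in 1-year livers is limited by depth, as it is in 3-year fish 178 at 14 counts. The same holds for irf1a in 3-year livers, at 1 to 12 counts a fish.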
